A study of Mus musculus with 4 samples.

Results

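Notch signaling was examined through 10 of its genes in RNA of the mouse hippocampus, sampled after a temporary block of cerebral blood supply. The genes were the receptors Notch1, Notch2 and Notch3, the ligands Jag1 and Dll1, the DNA-binding mediator Rbpj, and the target genes Hes1, Hes5, Hey1 and Hey2. They were taken by symbol, and all 10 were among the 22609 genes of each file. All 10 also passed the count filter that left 14978 genes for testing. The compared groups were PELP1 FBKO mice, which lack the co-regulator PELP1 of estrogen receptors in the forebrain, and FLOXED mice, with 2 libraries each. Every animal, of either genotype and on the C57BL/6 strain, had been ovariectomized, carried an estradiol (E2) mini pump, underwent global cerebral ischemia (GCI) and was killed after 24 h of reperfusion. The sources used here do not give ages, the driver of the deletion or the deleted part of Pelp1. No group lacked ischemia or estradiol, so whether a difference arose before or after these treatments cannot be told apart.

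Notch receptors are single-pass membrane proteins activated by ligands on neighboring cells. Ligand binding exposes the receptor to cleavage by ADAM proteases and then by gamma-secretase, and the freed intracellular domain joins RBPJ on DNA to switch on genes such as those of the Hes and Hey repressor families. In the adult hippocampus the pathway is known for keeping neural stem cells of the dentate gyrus undifferentiated, and it is also active in astrocytes and blood vessels. Notch3 is known chiefly from mural cells of vessels.

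RBPJ recognizes a short DNA word, and the promoters of Hes5 and Hey2 are shown because they were the target genes whose windows could be searched for it and because the genotypes overlapped in Hes5 and not in Hey2. RefSeq promoter windows on GRCm38.p6, reaching from 250 bases before to 50 bases after the start, were matched by symbol for 8 of the 10 genes, with 10 windows in all. Not in the table were Hes1 and Hey1. The word GTGGGAA was searched on both strands, as GTGGGAA or TTCCCAC. It occurred in 6.38% of 32851 windows of this length, and at least 2 copies occurred in 0.256% of them. Hes5 and Hey2 held 2 copies each, 1 on each strand, and the other 8 windows of the 10 genes held 0. Further words were searched in the same way. The core TGGGAA, which lies inside the longer word, was in 4 of the 10 windows (Hes5, Hey2 and both of Rbpj) and in 25.6% of all. Both Rbpj windows overlap each other, so they are not separate promoters. CGTGGGAA, which extends it, was in Hey2 alone of the 10 and in 0.734% of all. The Hes-binding word CACNAG was in 4 of the 10 windows and in 42.5% of all, the E-box CANNTG in 6 and in 72.3%, and TGTGAA in 1 and in 14.8%. In the lines below, capitals mark the copies, and both runs read 5′ to 3′ along the gene.
Hes5, chr4:154960673-154960922, plus strand, 250 bases: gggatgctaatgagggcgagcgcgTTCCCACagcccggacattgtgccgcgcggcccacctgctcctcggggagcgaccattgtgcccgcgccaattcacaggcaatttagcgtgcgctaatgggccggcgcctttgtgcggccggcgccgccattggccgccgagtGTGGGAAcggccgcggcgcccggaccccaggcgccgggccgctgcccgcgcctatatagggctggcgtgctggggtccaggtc
Hey2, chr10:30842781-30843033, minus strand, 253 bases, the last 3 past the start: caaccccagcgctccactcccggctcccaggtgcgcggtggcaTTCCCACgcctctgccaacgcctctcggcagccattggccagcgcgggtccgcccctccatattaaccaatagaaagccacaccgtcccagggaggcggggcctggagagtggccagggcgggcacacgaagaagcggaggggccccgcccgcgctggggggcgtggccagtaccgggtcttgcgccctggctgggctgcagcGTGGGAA
Counted from the start, the copies began at -226 and -83 in Hes5 and at -207 and -4 in Hey2. A match is a description of the letters, not of binding.

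The libraries held between 17524594 and 22447658 reads assigned to genes, and the 10 genes had between 75 and 1390 reads each. Pelp1, the targeted gene, was at 17.9 and 17.3 CPM (TMM-scaled read counts relative to library size) in PELP1 FBKO, against 26.7 and 26.3 CPM in FLOXED (log2 fold change -0.59, SE 0.149, edgeR quasi-likelihood adjusted p = 0.130). Replicates differed beyond counting noise, with a chi-square per degree of freedom of 17.4 for PELP1 FBKO and 23.3 for FLOXED. No source states that the replicates are different animals. The p-values therefore reflect the scatter of these 4 libraries, which may be technical. Replicates also stood apart by transcript length, most of all those of FLOXED. The median log2 ratio of PELP1 FBKO 1 to PELP1 FBKO 2 was 0.14 in genes with a transcript over 8 kb and -0.10 under 2 kb. The same medians for FLOXED 1 over FLOXED 2 were -0.33 and 0.28. The share of alignments that were not unique came to 38.5% and 41.5% for PELP1 FBKO, against 47.7% and 40.4% for FLOXED, highest in FLOXED 1. Values without FLOXED 1 are therefore given for the receptors and for some of the other Notch pathway genes named below. They are not given for the markers, although Dsp and Prox1 have long transcripts, of 9592 and 7913 bases. Markers of the labelled tissue were present, with Prox1 of dentate granule cells at 59.3 and 40.3 CPM in PELP1 FBKO, against 25.3 and 27.0 CPM in FLOXED. Wfs1 of CA1 pyramidal cells was at 81.7 and 69.7 CPM in PELP1 FBKO, against 96.3 and 165 CPM in FLOXED.

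The receptors had higher levels in PELP1 FBKO, Notch2 by the widest margin, while Hes1, Hes5 and Hey1 had nearly level or overlapping values. None of the 10 genes passed the threshold of 0.05 over all genes in edgeR's quasi-likelihood test. That test called 0% of tested genes in either direction, and its smallest adjusted p was 0.0501. At an unadjusted p under 0.05 the test counted 4 of the 10 genes higher (Notch1, Notch2, Notch3 and Hey2) and 0 lower, where 10.1% of all tested genes were higher and 5.55% lower. At an adjusted p under 0.10 it was 1 of the 10, Notch2, against 1.56% of genes higher. DESeq2 called 1 of the 10 higher, Notch2, and 0 lower, against 2.19% and 0.892% of its genes. The edgeR exact test called Notch2 as well, with 3.75% of genes higher and 1.32% lower, and limma-voom called 0 of the 10 and 0 genes in all. Both PELP1 FBKO libraries lay above both FLOXED libraries in 5 of the 10 genes, where 25.4% of tested genes did so, and below them in 0, where 23.0% did so. The median log2 fold change was 0.23 over the 10 genes and 0.00015 over all tested genes. The 10 genes and all lists used below were chosen with earlier results of these data known. Shares set beside those of all genes are therefore a description and not an independent test. Notch1, Notch2 and Notch3 have transcripts over 8 kb, a class in which 14.0% of tested genes were higher at an unadjusted p under 0.05.

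**Figure D1:**
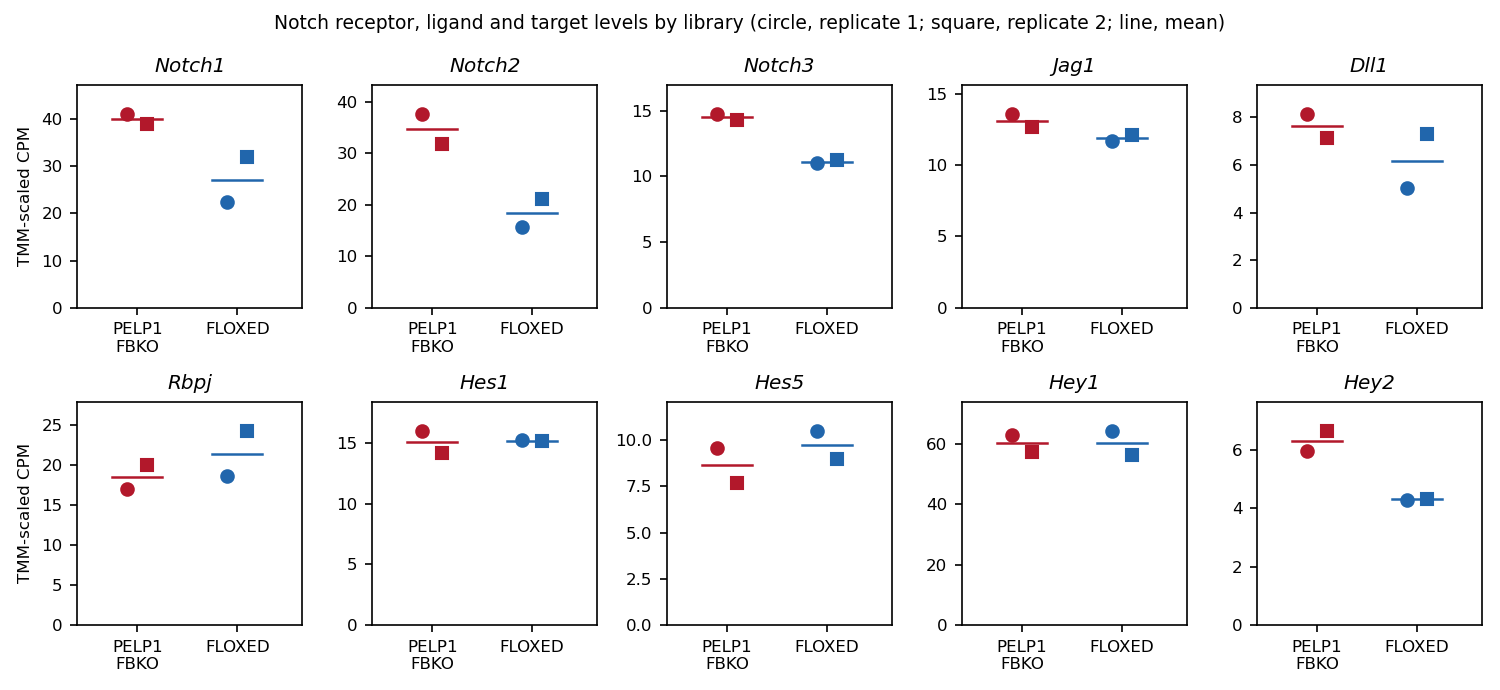
TMM-scaled CPM (vertical axis, from 0) of each of the 10 genes in the 4 libraries, PELP1 FBKO in red and FLOXED in blue. Circles are replicate 1, squares replicate 2 and lines the genotype means. The genotypes are apart in Notch1, Notch2, Notch3, Jag1 and Hey2 and overlap in Dll1, Rbpj, Hes1, Hes5 and Hey1.

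Notch2, a receptor of glial, progenitor and vascular cells, was at 37.7 and 31.7 CPM in PELP1 FBKO, against 15.7 and 21.0 CPM in FLOXED, from 832 and 648 reads against 275 and 456. The lowest PELP1 FBKO library was well above the highest FLOXED library, and FLOXED 1 was the lowest of all. The log2 fold change was 0.92 (SE 0.189, 95% interval 0.48 to 1.35), a 1.89-fold higher level. Its adjusted p was 0.0908 in edgeR's quasi-likelihood test and 0.00442 in DESeq2, and it ranged from 0.00235 to 0.286 over 15 alternatives, of which 8 placed Notch2 past 0.05. The highest of these belonged to the fit without FLOXED 1, where the log2 fold change was 0.72, and without FLOXED 2 it was 1.14 (adjusted p = 0.0261). Notch2 also has the longest transcript of the 10 genes, 10500 bases. With offsets for transcript length and GC content the log2 fold change was 0.74 (edgeR quasi-likelihood adjusted p = 0.0272). With the replicate number as a block it was 0.93 (edgeR adjusted p = 0.00998), although the numbers are not known to pair the samples.

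Notch1, the receptor best known from neural stem cells and from endothelium, was at 41.2 and 39.0 CPM in PELP1 FBKO, against 22.4 and 32.0 CPM in FLOXED. All PELP1 FBKO values lay above all FLOXED values, but while the PELP1 FBKO libraries differed from each other 1.05-fold, those of FLOXED differed 1.43-fold. The log2 fold change was 0.56 (SE 0.188, 95% interval 0.13 to 0.99, edgeR adjusted p = 0.215). It was 0.32 without FLOXED 1 (adjusted p = 0.485) and 0.83 without FLOXED 2 (adjusted p = 0.0327, the single alternative of 15 that passed 0.05). With length and GC offsets it was 0.40 (adjusted p = 0.132).

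Notch3, the receptor of vascular smooth muscle cells and pericytes, was at 14.8 and 14.3 CPM in PELP1 FBKO, against 11.0 and 11.3 CPM in FLOXED. Replicates of either genotype were close together and the groups did not overlap. Its log2 fold change was 0.39 (SE 0.167, 95% interval 0.000087 to 0.77, edgeR adjusted p = 0.320). Leaving out 1 library kept the value between 0.34 and 0.41 (0.37 without FLOXED 1), and with length and GC offsets it was 0.24. Its adjusted p stayed above 0.05 in all 15 alternatives, the smallest being 0.249.

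The fourth receptor gene, Notch4 of endothelium, comes from the wider pathway list. It was at 7.34 and 7.25 CPM in PELP1 FBKO, against 5.76 and 8.49 CPM in FLOXED, so the FLOXED libraries lay on either side. Its log2 fold change was 0.03 (SE 0.239), and -0.22 without FLOXED 1. Among the reads of all 4 receptors, Notch2 took 37.3% (Wilson 95% interval 35.4% to 39.4%) and 34.4% (32.3% to 36.6%) in PELP1 FBKO. In FLOXED it took 28.6% (25.8% to 31.6%) and 28.9% (26.7% to 31.2%). The share was thus higher in both PELP1 FBKO libraries, by 7.10 percentage points between the means, and nearly equal in the FLOXED libraries. Intervals of shares cover counting error only. An exact permutation test of 2 libraries against 2 cannot go below p = 0.333 (two-sided), the value found here. The Notch1 share was 40.8% and 42.3% in PELP1 FBKO, against 40.8% and 44.0% in FLOXED, with overlapping groups.

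Both ligands had positive fold changes that were small against their error. Jag1, a ligand of endothelium, mural cells and astrocytes, was at 13.6 and 12.6 CPM in PELP1 FBKO, against 11.7 and 12.1 CPM in FLOXED. The groups did not overlap, but the gap between them was narrow, and the log2 fold change was 0.14 (SE 0.170, 95% interval -0.25 to 0.53, edgeR adjusted p = 0.735). It was 0.07 without PELP1 FBKO 1, 0.20 without PELP1 FBKO 2, 0.12 without FLOXED 1 and 0.0087 with length and GC offsets. Dll1, a ligand presented by differentiating neural progenitors, was at 8.16 and 7.15 CPM in PELP1 FBKO, against 5.02 and 7.29 CPM in FLOXED. Here FLOXED 2 lay between the PELP1 FBKO libraries and only FLOXED 1 was lower. Its log2 fold change was 0.31 (SE 0.243, 95% interval -0.25 to 0.87, edgeR adjusted p = 0.576), 0.07 without FLOXED 1 and 0.60 without FLOXED 2.

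Rbpj, which represses Notch target genes until it is joined by the receptor's intracellular domain, was at 17.0 and 19.9 CPM in PELP1 FBKO, against 18.5 and 24.2 CPM in FLOXED. PELP1 FBKO 2 lay above FLOXED 1, so the genotypes overlapped. The log2 fold change was -0.22 (SE 0.188, 95% interval -0.65 to 0.22, edgeR adjusted p = 0.618). It kept its sign in all 15 alternatives and ranged from -0.39 without FLOXED 1 to -0.02 without FLOXED 2.

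Of the target genes, Hey2 alone had groups that did not overlap. Hey2, a repressor of arterial endothelium and smooth muscle, was at 5.98 and 6.66 CPM in PELP1 FBKO, against 4.28 and 4.34 CPM in FLOXED, from 132 and 136 reads against 75 and 94. Its log2 fold change was 0.55 (SE 0.220, 95% interval 0.04 to 1.06, edgeR adjusted p = 0.283). The value was between 0.48 and 0.61 when 1 library was left out and 0.52 with length and GC offsets, and its adjusted p was above 0.05 in all 15 alternatives.

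Hey1, the most abundant of the 10 genes and a relative of Hey2 found in endothelium and glia, was at 63.0 and 57.4 CPM in PELP1 FBKO, against 64.3 and 56.3 CPM in FLOXED. The FLOXED values enclosed those of PELP1 FBKO. The log2 fold change was -0.0015 (SE 0.136), and the 95% interval, -0.32 to 0.31, allows a difference of about that size either way. Hes1, an oscillating repressor that delays neural differentiation, was at 16.0 and 14.2 CPM in PELP1 FBKO, against 15.3 and 15.1 CPM in FLOXED. Here the PELP1 FBKO values enclosed those of FLOXED, with a log2 fold change of -0.01 (SE 0.166, 95% interval -0.39 to 0.37). The signs of Hey1 and Hes1 were not fixed: they turned under 8 and 5 of 15 alternatives. Hes5, the Hes gene most closely tied to Notch in neural stem cells, was at 9.57 and 7.69 CPM in PELP1 FBKO, against 10.5 and 8.95 CPM in FLOXED. Its genotypes overlapped, with a log2 fold change of -0.17 (SE 0.206, 95% interval -0.64 to 0.31, edgeR adjusted p = 0.739). The value was -0.35 without PELP1 FBKO 1, -0.02 without PELP1 FBKO 2 and -0.013 with length and GC offsets. The intervals of Hes1 and Hes5 do not reach the log2 fold change of Notch2, but the difference between genes was not tested.

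**Figure D2:**
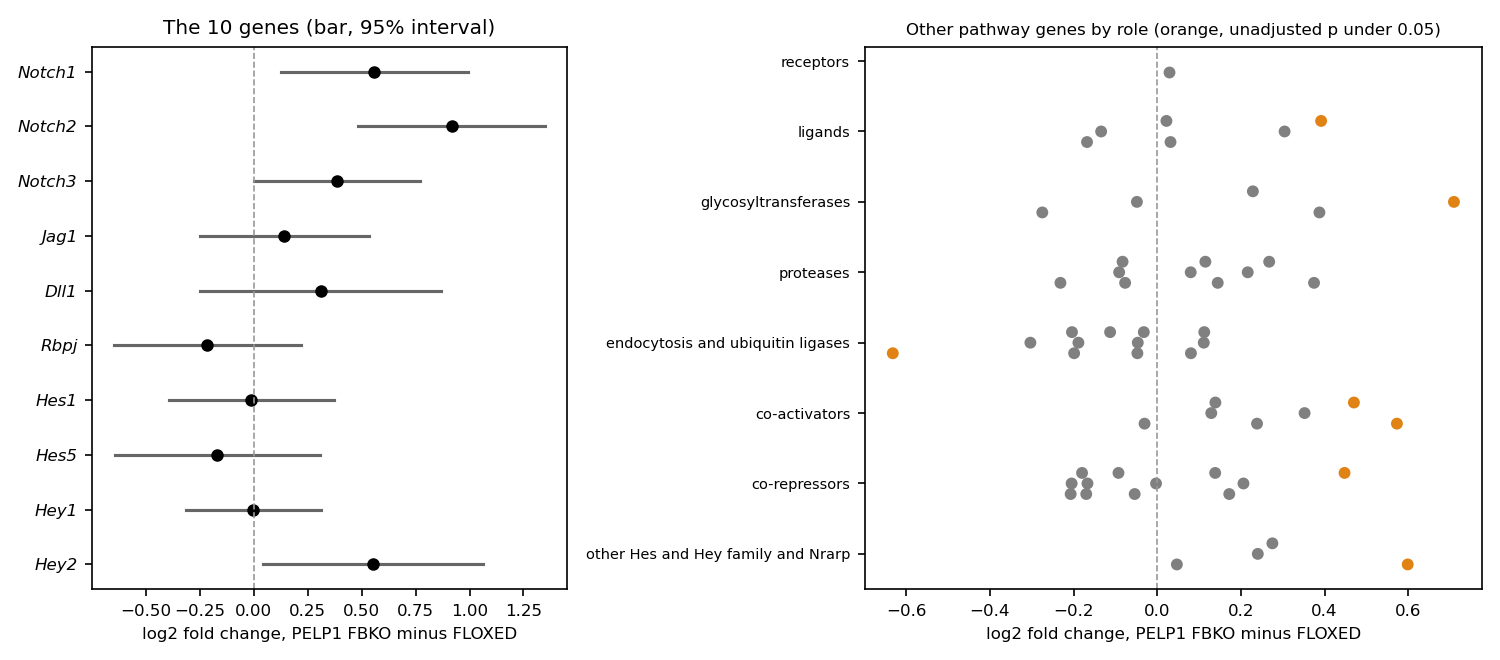
Left, log2 fold changes (PELP1 FBKO minus FLOXED) of the 10 genes with 95% intervals from edgeR's quasi-likelihood fit. Right, the same fold change for the other tested pathway genes, each point 1 gene, by role, with orange for an unadjusted p under 0.05. Intervals of Notch1, Notch2, Notch3 and Hey2 lie above 0, that of Notch3 barely.

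Summed by role, the levels differed in the receptors more than in the targets. Notch1, Notch2 and Notch3 together came to 93.7 and 85.1 CPM in PELP1 FBKO, against 49.0 and 64.3 CPM in FLOXED, with no overlap. The ligands together came to 21.8 and 19.8 CPM in PELP1 FBKO, against 16.7 and 19.4 CPM in FLOXED. Hes1, Hes5, Hey1 and Hey2 together came to 94.6 and 85.9 CPM in PELP1 FBKO, against 94.3 and 84.7 CPM in FLOXED. The target sums of replicates were thus further apart, in either genotype, than the genotype means. Within that sum Hey2 took 6.33% and 7.76% of the reads in PELP1 FBKO, against 4.53% and 5.12% in FLOXED, and Hey1 took between 66.4% and 68.1% in the 4 libraries.

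Levels were compared between genes only per length, as CPM per kb of the longest transcript. On this scale Hey1 was highest with a mean of 24.9 over the 4 libraries, followed by Hes1 at 10.3 and Hes5 at 7.21. The ranges of these 3 did not overlap with each other or with the next gene, and they held the first 3 ranks in each library. Rbpj at 3.63 and Notch1 at 3.55 followed, and then Notch2 at 2.53, Jag1 at 2.23, Hey2 at 2.08, Dll1 at 1.93 and Notch3 at 1.60. From Rbpj on, each gene's range over the libraries of both genotypes overlapped that of the next. These pooled ranges do not give the order within a library, where Notch1 ranked above Notch2 in all 4. Notch2 averaged 3.31 CPM per kb in PELP1 FBKO and 1.75 in FLOXED, which gave it ranks 5 and 6 in the PELP1 FBKO libraries and rank 8 in both FLOXED libraries. Notch3 had rank 10 in all 4 libraries.

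**Figure D3:**
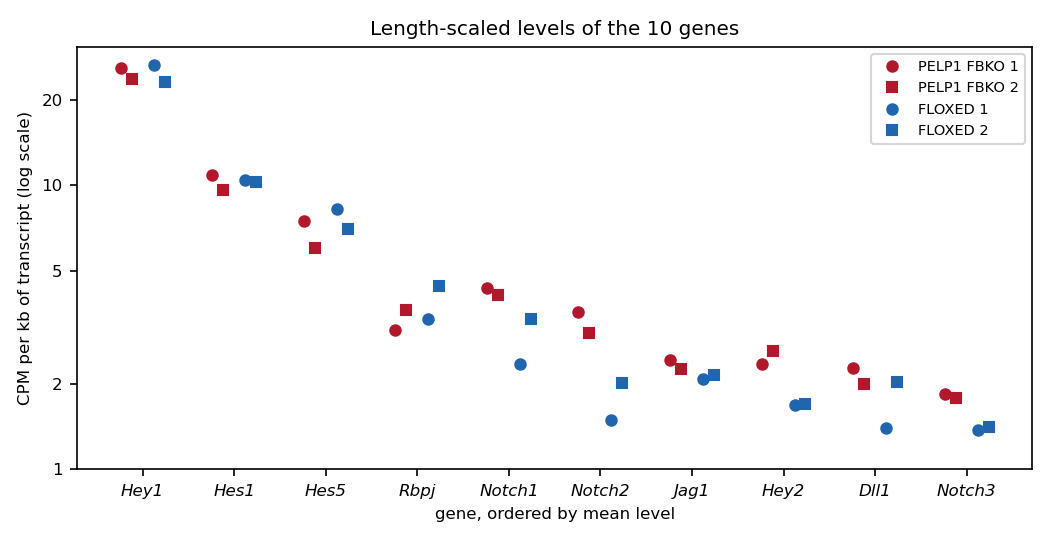
CPM per kb of the longest transcript (log scale) for the 10 genes, ordered by mean level, in PELP1 FBKO (red) and FLOXED (blue) libraries. Hey1, Hes1 and Hes5 lead in each library, and the points of Notch1, Notch2, Notch3, Jag1 and Hey2 separate by genotype, those of Jag1 narrowly.

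Transcript length was set beside the receptor results. Notch1, Notch2 and Notch3 have longest transcripts of 9488, 10500 and 8016 bases, while those of Hes1, Hes5, Hey1 and Hey2 lie between 1273 and 2550 bases. Among tested genes with transcripts over 8 kb the median log2 fold change was 0.12, and under 2 kb it was -0.14, and without FLOXED 1 these medians were -0.04 and 0.01. An unadjusted p under 0.05 on the higher side was reached by 14.0% of genes over 8 kb and 6.24% under 2 kb. FLOXED 1 was below FLOXED 2 by 0.52 on the log2 scale in Notch1 and by 0.42 in Notch2, but by 0.03 in Notch3. The part of FLOXED 1's length profile in the remaining differences was not tested beyond the offsets and the left-out library given here.

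**Figure D4:**
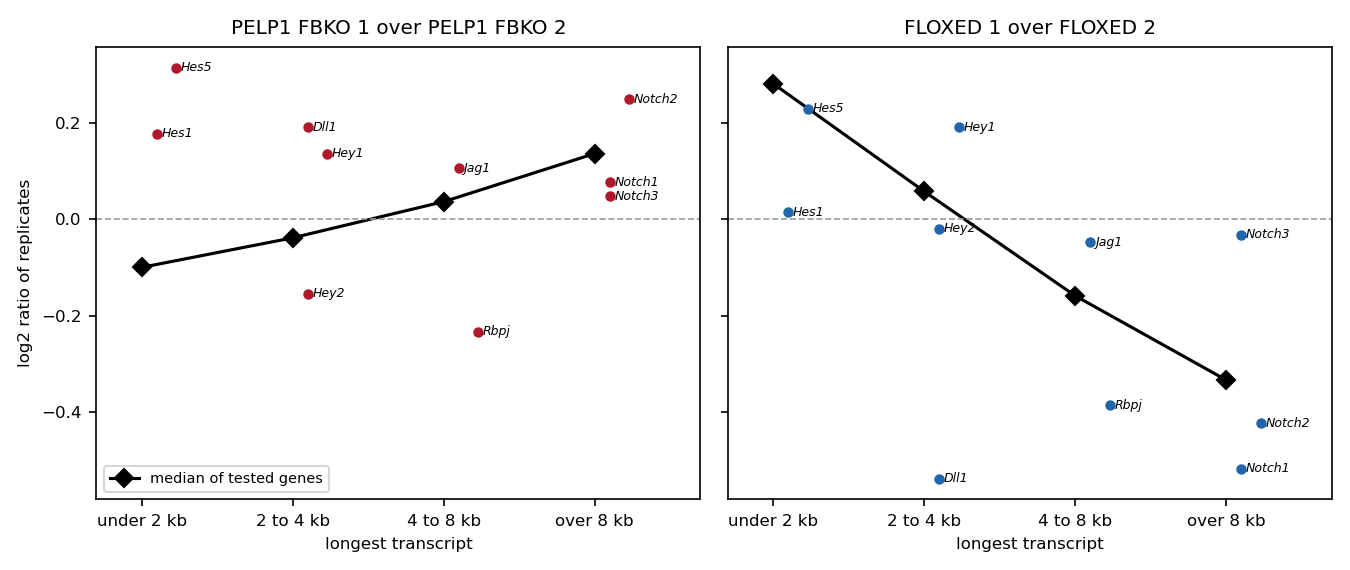
Log2 ratio of replicate 1 to replicate 2 by length of the longest transcript, for PELP1 FBKO (left) and FLOXED (right). Diamonds are medians of all tested genes in a length class and circles the 10 genes. In FLOXED the medians run from 0.28 under 2 kb to -0.33 over 8 kb, with Notch1 and Notch2 lower still and Notch3 near 0.

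**Figure D5:**
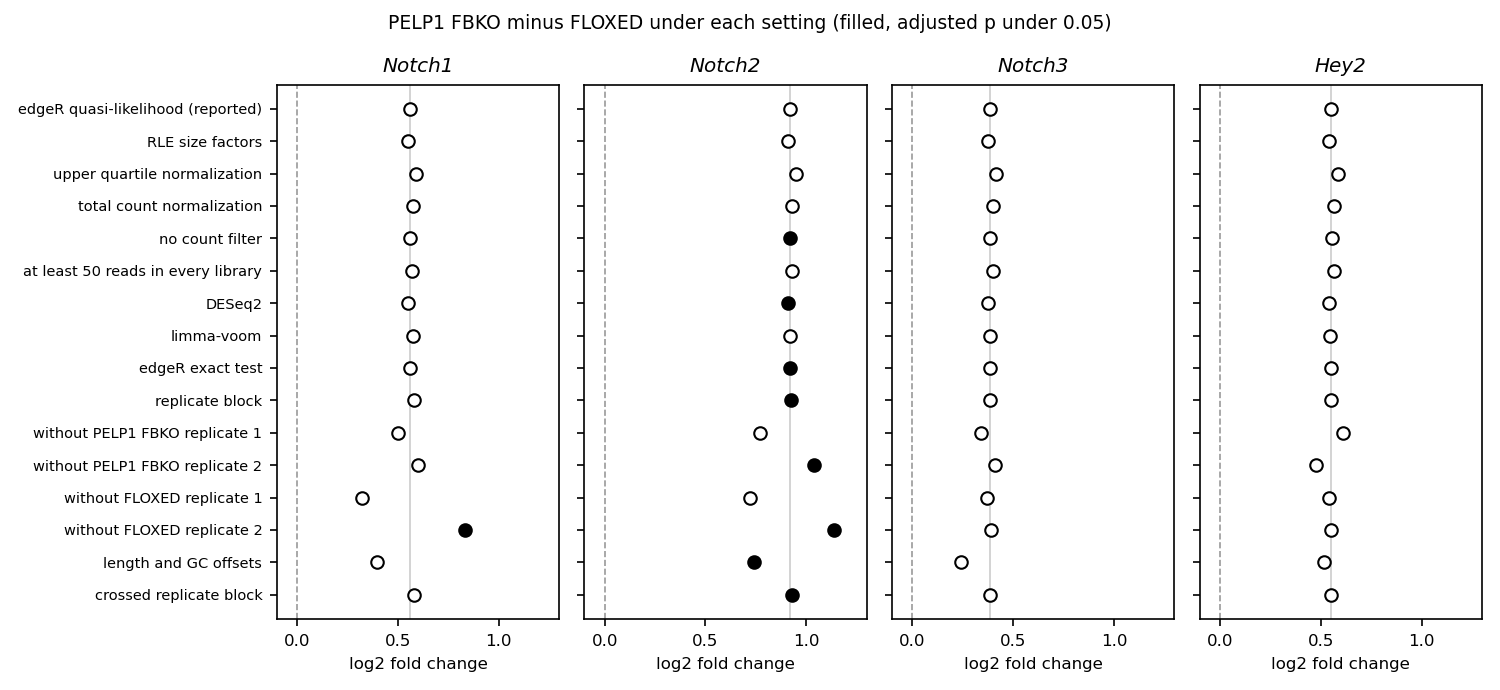
Log2 fold changes (PELP1 FBKO minus FLOXED) of Notch1, Notch2, Notch3 and Hey2 under the reported test and each of 15 alternatives, filled where the adjusted p is under 0.05. All values lie above 0. Notch2 is filled in 8 settings and Notch1 in 1, and the lowest values of both come without FLOXED 1.

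Marker genes of the cell types known to use the pathway, and of others in the tissue, were set beside these values. In RNA from whole tissue more cells of a type and more RNA per cell cannot be told apart. Of 11 astrocyte markers 11 had positive log2 fold changes, with a median of 0.53, and 7 had an unadjusted p under 0.05, where 10.1% of all tested genes reached it on the higher side. Their summed level was 7828 and 9714 CPM in PELP1 FBKO, against 6061 and 6913 CPM in FLOXED. Gfap, named outside the rule after its values were seen, set the PELP1 FBKO libraries far apart. It was at 1500 and 3882 CPM in PELP1 FBKO, against 2382 and 2258 CPM in FLOXED. Gja1 of astrocyte gap junctions was at 338 and 338 CPM in PELP1 FBKO, against 137 and 171 CPM in FLOXED, while Aqp4 of astrocyte endfeet had a log2 fold change of 0.11 (SE 0.266). Mural cell markers were positive in 10 of 10, with a median of 0.47, 4 at an unadjusted p under 0.05, and sums of 212 and 246 CPM in PELP1 FBKO, against 151 and 183 CPM in FLOXED. Pdgfrb of pericytes had 0.65 (SE 0.189) and Rgs5 0.50 (SE 0.186).

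Endothelial markers were positive in 9 of 10, with a median of 0.35, 2 at an unadjusted p under 0.05, and sums of 294 and 283 CPM in PELP1 FBKO, against 183 and 257 CPM in FLOXED. Cldn5 of tight junctions stood at a log2 fold change of 0.35 (SE 0.159), and Pecam1 at 0.28 (SE 0.192). Of 9 tested stem and progenitor markers 7 were positive and 5 had an unadjusted p under 0.05 on the higher side. Their sums, 350 and 656 CPM in PELP1 FBKO against 359 and 392 CPM in FLOXED, overlapped. The sum of PELP1 FBKO 2 was mostly Vim, named outside the rule after its values were seen. Vim was at 109 and 352 CPM in PELP1 FBKO, against 147 and 179 CPM in FLOXED. Nes was at 12.5 and 33.4 CPM in PELP1 FBKO, against 24.9 and 37.7 CPM in FLOXED. Sox2 had 0.50 (SE 0.158), and Nes, encoding nestin, -0.46 (SE 0.403). Oligodendrocyte markers were positive in 10 of 10, with a median of 0.84, 9 at an unadjusted p under 0.05, and sums of 5914 and 6369 CPM in PELP1 FBKO, against 2978 and 3804 CPM in FLOXED. Microglial markers were positive in 10 of 10, with a median of 0.39, 4 at an unadjusted p under 0.05, and sums of 840 and 1143 CPM in PELP1 FBKO, against 730 and 675 CPM in FLOXED. Oligodendrocyte precursor markers were positive in 6 of 8, with a median of 0.25, 3 at an unadjusted p under 0.05, and sums of 692 and 680 CPM in PELP1 FBKO, against 556 and 574 CPM in FLOXED. Neuronal markers were positive in 6 of 10, with a median of 0.09, 2 at an unadjusted p under 0.05, and sums of 13397 and 10855 CPM in PELP1 FBKO, against 11138 and 11846 CPM in FLOXED.

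Choroid plexus and ependymal markers were positive in 4 of 7 tested, with a median of 0.53, and an unadjusted p under 0.05 was reached by 2 positive ones and by Ttr on the lower side. Their sums, 72.0 and 100.3 CPM in PELP1 FBKO against 359 and 109 CPM in FLOXED, were mostly Ttr in FLOXED. Ttr, the transthyretin of choroid plexus, was at 21.4 and 33.9 CPM in PELP1 FBKO, against 324 and 67.5 CPM in FLOXED, and FLOXED 1 was far above the rest. Without Ttr the sums were 50.6 and 66.4 CPM in PELP1 FBKO, against 35.5 and 41.7 CPM in FLOXED. Foxj1 and Ccdc153 of ciliated ependymal cells, which like Ttr were picked out after their values were seen, had log2 fold changes of 1.45 (SE 0.329) and 2.39 (SE 0.437).

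Hippocampal field markers were positive in 6 of 10, and 5 reached an unadjusted p under 0.05. The fold changes of Prox1 and of Dsp, also of dentate granule cells, were 0.93 (SE 0.196) and 0.95 (SE 0.218) on the log2 scale. The CA1 markers Wfs1, Fibcd1 and Spink8 had -0.79 (SE 0.236), -0.65 (SE 0.143) and -0.73 (SE 0.210). In all 5 the genotypes did not overlap, and Dsp, Fibcd1 and Spink8 were picked out after their values were seen. The rest of the field list, also named outside the rule, did not reach an unadjusted p under 0.05. Lct, Neurod1, Bok and Zbtb20 had log2 fold changes of 0.02, 0.11, 0.07 and 0.18, with overlapping genotypes. Neurod6 had -0.35 (SE 0.172), and its genotypes did not overlap, with PELP1 FBKO lower. The list as a whole thus did not move by field in every gene. None of the listed markers was at 0 reads in any library.

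No marker passed the threshold in edgeR's quasi-likelihood test. DESeq2 called 5 astrocyte, 1 endothelial, 3 stem and progenitor, 2 neuronal, 8 oligodendrocyte, 3 microglial, 2 choroid plexus or ependymal and 2 field markers higher, and 2 field markers lower. It called 0 mural cell and 0 oligodendrocyte precursor markers. Of all its genes DESeq2 called 2.19% higher and 0.892% lower. The 2 neuronal markers were Gad1 and Gad2, named outside the rule after their values were seen, with log2 fold changes of 0.52 and 0.64. Of the 10 neuronal markers 4 were negative. The edgeR exact test gave the same marker counts as DESeq2 but for 1 mural cell and 1 precursor marker higher and 1 choroid plexus or ependymal marker lower. Over all tested genes the exact test called 3.75% higher and 1.32% lower. The marker sums in FLOXED 1 were below those in FLOXED 2 for astrocytes, mural cells and endothelium. The same held for oligodendrocytes, their precursors, stem and progenitor cells, neurons and the hippocampal fields. Sums in FLOXED 1 were above those in FLOXED 2 for microglia and, through Ttr, for choroid plexus and ependyma. The part of cell makeup or of the dissected fields in the Notch values was not tested.

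Beyond the 10 genes, a list of 59 further pathway genes showed no common direction. Of these 57 were tested, with 31 positive and 26 negative log2 fold changes and a median of 0.03. None passed edgeR's quasi-likelihood threshold. With an unadjusted p below 0.05 there were 6 of 57 higher and 1 lower, where all tested genes had 10.1% and 5.55%. DESeq2 called 0 higher and 1 lower, and the exact test 1 higher and 1 lower. The untested genes, Hes2 and Hes3, had at most 1 read in any library.

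Lfng, lunatic fringe, which adds sugars to Notch receptors and so shifts their ligand preference, was the highest by p among the glycosyltransferases. It was at 26.0 and 22.7 CPM in PELP1 FBKO, against 15.9 and 13.9 CPM in FLOXED. The groups lay far apart, with a log2 fold change of 0.71 (SE 0.166, edgeR adjusted p = 0.113), between 0.59 and 0.81 with 1 library left out, and it passed 0.05 under 3 of 15 alternatives. Numbl, an adaptor related to Numb, which restrains Notch by endocytosis, was on the lower side. It was at 113 and 98.4 CPM in PELP1 FBKO, against 175 and 152 CPM in FLOXED, a log2 fold change of -0.63 (SE 0.141, edgeR adjusted p = 0.104). DESeq2 gave it an adjusted p of 0.00714, and it passed 0.05 under 5 of 15 alternatives, with values from -0.75 to -0.53 when 1 library was left out, the last without FLOXED 1.

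Among the co-activators that join RBPJ with the intracellular domain, 6 of 7 were positive. Kat2b, a histone acetyltransferase, had 0.57 (SE 0.191) and Maml2, a Mastermind-like scaffold, 0.47 (SE 0.158). Both lay above FLOXED in both PELP1 FBKO libraries, at adjusted p = 0.211 and adjusted p = 0.215 in edgeR, and without FLOXED 1 their values were 0.39 and 0.34. Of 12 co-repressors 8 were negative, and the groucho-family gene Tle2 was the one at an unadjusted p under 0.05, at 0.45 (SE 0.171) and adjusted p = 0.265, its span overlapping that of Tle6. Among further ligands Dner, a neuronal protein related to the Delta ligands, was at 211 and 204 CPM in PELP1 FBKO, against 139 and 178 CPM in FLOXED. Its log2 fold change was 0.39 (SE 0.154, edgeR adjusted p = 0.276), and 0.22 without FLOXED 1.

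Genes listed with the proteases that cleave the receptors had log2 fold changes between -0.23 and 0.37, with a median of 0.10. The genotypes did not overlap in 4 genes with PELP1 FBKO higher and in 1 with PELP1 FBKO lower. Of 10 such genes 0 had an unadjusted p under 0.05, and the smallest belonged to Furin, which cuts the receptor on its way to the surface, at -0.23 (SE 0.125, edgeR adjusted p = 0.418). Among the ubiquitin ligases and endocytic adaptors 9 of 12 were negative, Numbl being the single one at an unadjusted p under 0.05. Of the other Hes and Hey genes and Nrarp, all 4 tested were positive. Heyl, a Hey relative of vascular smooth muscle, was at 6.66 and 6.42 CPM in PELP1 FBKO, against 3.42 and 5.17 CPM in FLOXED. Its log2 fold change was 0.60 (SE 0.259, edgeR adjusted p = 0.319), and FLOXED 1 was its lowest library, with 0.34 remaining without it. Nrarp, a feedback inhibitor induced by Notch and named here outside the rule after its value was seen, had 0.05 (SE 0.197).

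Profiles over the 4 libraries were compared by the Euclidean distance of log2 CPM centred on each gene's mean. The genes nearest to Notch2 were Heph, Arhgef10 and Atp13a5, at distances of 0.011, 0.046 and 0.069. Those nearest to Notch1 were Dmrt2, Vav2 and 4930412C18Rik, at 0.029, 0.043 and 0.052. Acss1, Itgb5 and Dact1 lay nearest to Hey2, at 0.027, 0.029 and 0.033. With 4 libraries such likeness is common: 47 genes lay within 0.2 of Notch2, 200 of Notch1 and 321 of Hey2.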

How the data were processed

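RNA from the hippocampus of 4 mouse samples, 2 PELP1 FBKO and 2 FLOXED, was sequenced as single reads of 50 bases. The deposited values are raw read counts per gene symbol, unnormalized, as their whole numbers and unequal totals show. Per the submitters' processing notes, reads passed through CASAVA 1.8.2 and TopHat2 2.0.8b to HTSeq, on build mm9. A human build stands in the series text, but the rows carry mouse symbols. How strand and overlaps were treated, and with which annotation, is not given in the sources used here. Reads of duplicate runs were combined, per the series text. HTSeq's 5 summary rows, among them reads in no gene (between 14.7% and 15.7% of uniquely placed reads), stayed out of library sizes and tests.

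The 10 genes were taken by exact symbol from each file of 22609 genes. The members and all gene lists were chosen with earlier results of these data known. Genotype was tested with edgeR 4.0.16 in R 4.3.3 (filterByExpr, TMM scaling, quasi-likelihood F test without further terms) over 14978 genes, with p-values adjusted by Benjamini-Hochberg and 0.05 as the threshold. Standard errors were derived from the F statistic. The fit was tested on simulated counts. Alternatives were DESeq2 1.42.0, limma-voom (limma 3.58.1), edgeR's exact test, other size factors and filters, the replicate number as a block, and each library left out. Offsets for transcript length and GC content, fitted per library with natural splines of 5 degrees of freedom each, and a block on crossed replicate numbers were added after seeing the data. Lengths came from the longest GENCODE vM21 transcript (98.9% of tested genes had one). CPM is scaled by TMM.

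Named by rule were the 10 genes, Pelp1, in each pathway role the gene with the smallest p and up to 3 genes at an unadjusted p under 0.05, a few defining markers of cell types and fields, and the 3 nearest profiles of the 3 members with the smallest p. Genes named beyond this rule are said to be.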

Additional observations from a re-analysis of the deposited data

How the results depend on the processing

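Over 20 named genes and 15 alternatives, the log2 fold change kept its sign in 285 of 300 values. It turned for Hes1 (0.0202 with upper quartile, 0.00089 with total counts, 0.0015 with at least 50 reads, 0.0604 with length and GC offsets), for Hey1 (0.0304 with upper quartile, 0.0111 with total counts, 0.00039 without a filter, 0.0115 with at least 50 reads, 0.0010 with limma-voom, 0.00019 with the crossed block) and for Notch4 (-0.054 with length and GC offsets). With 1 library left out, Hes1 ranged from -0.12 to 0.0754, Hey1 from -0.11 to 0.0962 and Notch4 from -0.22 to 0.33. The causes were not tested.

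The count of all genes called, 0 higher and 0 lower in the reported test, was 13 and 4 with RLE size factors, 37 and 5 with upper quartile, 20 and 3 with total counts, 278 and 81 without a count filter, 39 and 4 when each library needed 50 reads, 319 and 130 with DESeq2, 562 and 197 with the exact test, 257 and 131 with length and GC offsets, and 234 and 59 at a threshold of 0.10. Leaving out 1 library gave between 0 and 457 higher and between 0 and 324 lower; the 0 came without FLOXED 1. A library left alone in its genotype was assumed to vary like the other genotype. Of the 10 genes, 1 was higher (Notch2) without a filter, with DESeq2, the exact test or length and GC offsets and at 0.10, and between 0 and 2 with 1 library left out. Of the other pathway genes, 1 was higher (Lfng) and 1 lower (Numbl) with the exact test and with length and GC offsets, and 0 and 1 without a filter and with DESeq2, while leaving out 1 library gave between 0 and 1 in each direction.

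The replicate number as a block called 387 genes higher and 179 lower, 1 of them among the 10 genes. Differences between replicates 1 and 2 were only weakly, and negatively, correlated between the genotypes (r = -0.12 over 14978 genes). With 2 pairs the numbers are not known to pair the samples. A block on crossed numbers called 223 higher and 91 lower, 1 of them among the 10 genes. A log2 fold change under about 0.3 lies within the 95% interval of even the most deeply counted of the 10 genes, Hey1.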
